A study of Mus musculus with 4 samples.

Results

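The Wnt pathway genes described here are all those whose symbol on the array platform begins with Wnt, Fzd, Dkk, Sfrp, Dvl or Rspo, together with Lrp5, Lrp6, Wif1, Frzb, Ror1, Ror2, Ryk, Ctnnb1, Axin1, Axin2 and Apc. They are 57 genes of the 18194 that the platform names by a probe set of their own, read by 112 of its 45101 probe sets. RNA came from the left hemi-diaphragm of the mouse, a skeletal muscle of breathing, split into the synaptic region, the band where the motor nerve meets the fibres, and the non-synaptic region, with 2 arrays for each. The sources used here do not give the strain, age or treatment of the animals. They also do not say whether 2 arrays of 1 region stand for different animals, so each p-value describes variation among arrays that may be purely technical. In such pieces of muscle, fewer cells of a type and less RNA per cell cannot be told apart.

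No Wnt pathway gene passed the test between the regions over all probe sets. The members with the smallest unadjusted p were the secreted antagonist Sfrp5, 1.84-fold higher in the synaptic region on its brightest probe set, the opposite-strand transcript Fzd10os at 1.51-fold and the ligand Wnt7a at 2.11-fold. Over the Wnt pathway probe sets tested, the median absolute log2 difference between the regions was 0.240, against 0.136 over all probe sets tested. The median gap between single arrays of a region was also wider for these probe sets, 0.387 against 0.351 for the synaptic and 0.372 against 0.298 for the non-synaptic arrays.

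Wnt proteins are secreted lipid-modified ligands. In the canonical branch a Wnt binds a Frizzled receptor together with Lrp5 or Lrp6, Dishevelled is recruited, and the complex of Axin and Apc that marks beta-catenin for breakdown is held back, so that beta-catenin (Ctnnb1) enters the nucleus. Other branches run through Ror1, Ror2 and Ryk, and R-spondins raise the level of Frizzled at the surface. Sfrp, Wif1 and Frzb bind Wnts outside the cell, while some Dkk proteins, Dkk2 among them, bind Lrp5 and Lrp6. At the neuromuscular synapse the agrin receptor kinase Musk carries a Frizzled-like domain that can bind Wnts, and Wnt ligands, Dishevelled and beta-catenin are known to influence the clustering of acetylcholine receptors.

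The arrays had the same trimmed mean of 2500, and their median intensities ranged from 658 to 769. Values are log2 of intensities raised to a floor of 158.891, so that 7.31 is the lowest possible value, and a probe set was tested if its mean was at least 8.87. Genes of the neuromuscular synapse were checked against the region labels. The acetylcholinesterase gene Ache was at 12.32 and 12.04 on the synaptic arrays against 9.66 and 9.56, and the receptor subunit gene Chrna1 at 13.24 and 13.08 against 11.20 and 11.19. Both missed the threshold over all probe sets, with limma adjusted p-values of 0.165 and 0.198. The subunit gene Chrne differed by 3.11 ± 0.67 (SE), but the other genes of the check did not all follow the labels. Dok7, the activator of Musk, was at 13.09 and 12.05 against 13.13 and 13.10, below on each synaptic array (-0.54 ± 0.37), the scaffold gene Rapsn differed by 0.005 ± 0.24 and the agrin gene Agrn by 0.04 ± 0.31, and Colq lay under the filter. The skeletal muscle gene Tnnt3 was between 17.38 and 17.52 on all 4 arrays, whereas the fast myosin gene Myh4 was at 14.97 and 15.30 on the synaptic arrays against 16.39 and 16.52. Arrays whose titles end in the same number were closer to each other than arrays of 1 region. Over the Wnt pathway probe sets tested, the median absolute log2 gap between regions was 0.215 for the arrays numbered 1 and 0.239 for those numbered 2.

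Of the 112 probe sets, 65 passed the filter on low values, and 39 of the 57 genes had at least 1 of them. Another 11 probe sets lay at the floor on all 4 arrays. By limma's moderated test 0 of the 65 passed at an adjusted p under 0.05, where 0.00378% of the 26480 probe sets tested passed as higher and 0.00755% as lower in the synaptic region. At an unadjusted p under 0.05 there were 3 higher and 0 lower, against 0.653% and 0.332% of all probe sets. The regions were apart, with every synaptic array above each of the others, for 11 of the 65 (16.9%), and with every synaptic array below for 9 (13.8%), against 9.89% and 9.98% of all probe sets. The median difference was -0.03, beside -0.01 over all probe sets tested. Of the 65 differences 48 (73.8%) were smaller than 0.5, against 91.9% of all probe sets, and for 31 (47.7%) the 95% interval lay within a 2-fold change either way, against 59.9%. For the others a 2-fold difference was not excluded with 2 arrays a region. The filter was passed through 1 region alone by 4 of the probe sets, dimmer ones of Sfrp5, Fzd1, Sfrp1 and Apc, and these support nothing.

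**Figure D1:**
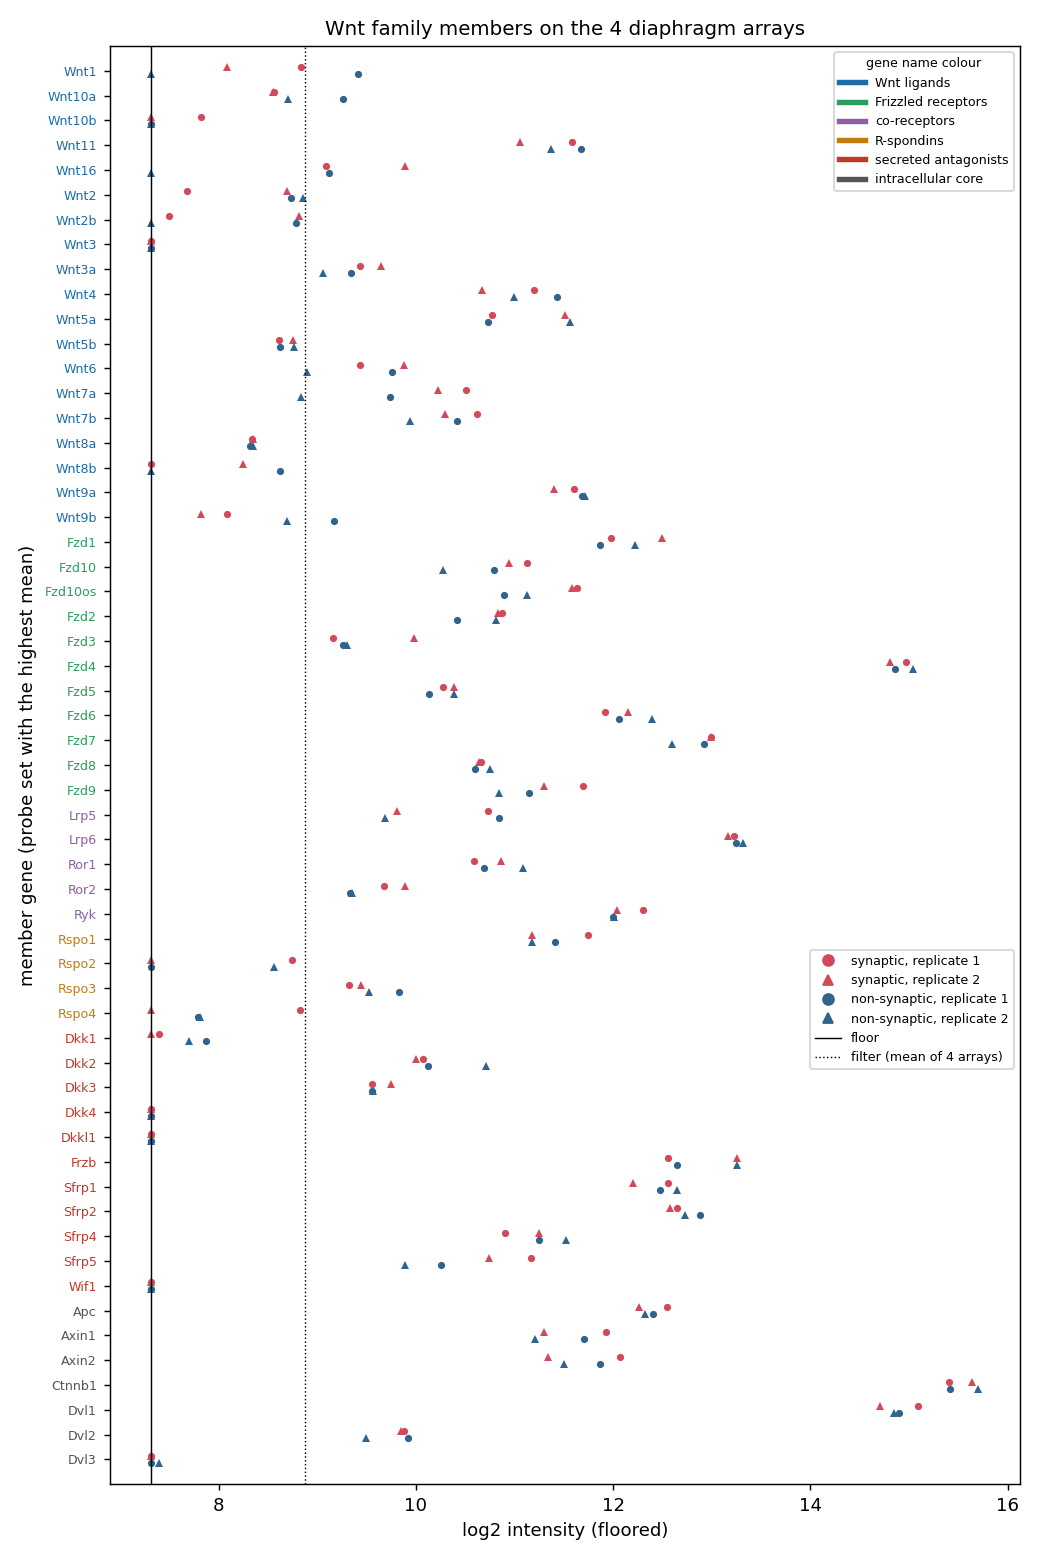
The log2 intensity on each of the 4 arrays for the 57 genes, each shown by its brightest probe set, with synaptic arrays in red, non-synaptic arrays in blue, circles for replicate 1 and triangles for replicate 2. For most genes the red and blue points overlap, and the mean of 18 genes lies to the left of the dotted filter line at 8.87.

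Most Wnt ligands lay under the filter on low values. Of 19 genes 8 were measured, namely Wnt3a, Wnt4, Wnt5a, Wnt6, Wnt7a, Wnt7b, Wnt9a and Wnt11, and 11 were left out by it. Of the measured genes 4 had a positive and 4 a negative difference, with a median of 0.14. Among those under the filter, Wnt3 was at the floor on every array, Wnt8a was between 8.32 and 8.35 on all 4 arrays and Wnt5b between 8.61 and 8.77. Wnt16 was at 9.09 and 9.88 on the synaptic arrays against 9.12 and 7.31, so that the regions overlapped and only 1 array reached the floor. Wnt9b had a probe set lower on each synaptic array, at 8.08 and 7.82 against 9.17 and 8.70, and another with only synaptic replicate 1 above the floor, at 9.79. Wnt10a was lower on each synaptic array, at 8.56 and 8.55 against 9.26 and 8.71. The other ligands under the filter were Wnt1, Wnt2, Wnt2b, Wnt8b and Wnt10b.

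Wnt7a, a ligand known from muscle for its action on satellite cells and fibre growth, was at 10.51 and 10.22 on the synaptic arrays against 9.74 and 8.83. Both synaptic arrays were the higher, but the lower of them stood closer to the upper non-synaptic array than the non-synaptic arrays stood to each other. The difference was 1.08 ± 0.40 (SE, n = 2 arrays per region; 95% interval 0.06 to 2.09; limma unadjusted p = 0.0412, adjusted p = 0.9999). Leaving out non-synaptic replicate 2 gave 0.62 and leaving out non-synaptic replicate 1 gave 1.53. The other 2 probe sets of Wnt7a were at the floor on all 4 arrays, so the value rests on a single probe set.

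Wnt4, Wnt9a and Wnt11, ligands known to bind Musk or to act at the forming synapse, had differences of -0.28 ± 0.30, -0.20 ± 0.21 and -0.20 ± 0.28 (SE), none of them past the test. Wnt9a was at 11.60 and 11.40 on the synaptic arrays against 11.69 and 11.71, just below on both. Wnt4 was at 11.20 and 10.67 against 11.43 and 10.99, and Wnt11 at 11.59 and 11.05 against 11.68 and 11.37, both with overlapping regions. The 95% interval of Wnt9a, -0.72 to 0.33, lay within 2-fold either way. Wnt5a, a ligand of the non-canonical branch, differed by -0.005 ± 0.41, with the arrays numbered 2 the higher in each region (10.77 and 11.51 against 10.73 and 11.57).

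The remaining measured ligands, Wnt3a, Wnt6 and Wnt7b, had differences of 0.34 ± 0.32, 0.33 ± 0.42 and 0.28 ± 0.30 (SE). For Wnt3a, known to limit receptor clusters through beta-catenin, the synaptic arrays at 9.43 and 9.65 were above the non-synaptic arrays at 9.34 and 9.05. Among protein-coding genes of the RefSeq annotation, Wnt6 neighbours Wnt10a, Wnt3a neighbours Wnt9a, Wnt9b neighbours Wnt3 and Wnt10b neighbours Wnt1. Of these 4 pairs only Wnt3a and Wnt9a were measured on both sides, with differences of opposite sign.

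All 11 Frizzled-named genes were measured, and 8 had a positive difference, with a median of 0.23. By probe set, 6 of 19 had the regions apart with the synaptic arrays higher and 0 with them lower, against 9.89% and 9.98% of all probe sets. None passed the test over all probe sets (lowest limma adjusted p = 0.9999), and 1, that of Fzd10os, had an unadjusted p under 0.05. Fzd7 was at 12.99 and 12.99 on the synaptic arrays against 12.92 and 12.60, a difference of 0.23 ± 0.20 (SE). Fzd3 differed by 0.29 ± 0.39, Fzd2 by 0.24 ± 0.25, Fzd1 by 0.19 ± 0.27 and Fzd5 by 0.07 ± 0.25. Fzd8 differed by -0.03 ± 0.23.

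Fzd10os, a non-coding transcript from the strand opposite to Fzd10 that is counted here by its name and is no receptor, was at 11.63 and 11.58 on the synaptic arrays against 10.89 and 11.13. The regions did not overlap, and the difference was 0.60 ± 0.22 (SE; 95% interval 0.05 to 1.15; limma unadjusted p = 0.0385, adjusted p = 0.9999). Its dimmer probe set differed by 0.79 ± 0.51, with synaptic replicate 2 alone above the others, at 10.92 beside 9.64 on synaptic replicate 1. Fzd10, the receptor encoded beside it, was at 11.13 and 10.95 against 10.79 and 10.27. It was likewise higher on each synaptic array, by 0.51 ± 0.28 (SE), which did not pass (unadjusted p = 0.123), and by 0.25 with non-synaptic replicate 2 left out. The other probe set of Fzd10 was at the floor on all 4 arrays. Whether the probe sets tell the strands apart was not tested.

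Fzd9, known to act on receptor clusters in cultured muscle cells, was at 11.69 and 11.30 on the synaptic arrays against 11.15 and 10.84. The difference was 0.50 ± 0.26 (SE, unadjusted p = 0.106), with the regions apart, and it was 0.31 without synaptic replicate 1. Fzd4, the receptor of norrin that is known from blood vessels, was at 14.97 and 14.80 against 14.86 and 15.04. Its difference of -0.06 ± 0.16 had a 95% interval of -0.48 to 0.36. Fzd6 gave -0.19, 0.66 and -0.82 on its 3 probe sets. The one at 0.66 had the regions apart, at 9.65 and 9.86 against 9.60 and 8.60, and differed by 0.16 with non-synaptic replicate 2 left out.

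The co-receptors Lrp5 and Lrp6, the receptor kinases Ror1 and Ror2 and the receptor Ryk had differences from -0.16 to 0.44 over their brightest probe sets. Lrp6 was at 13.23 and 13.17 on the synaptic arrays against 13.25 and 13.32, a difference of -0.08 ± 0.17 (SE; 95% interval -0.52 to 0.35). Ror2, a Wnt5a receptor, was at 9.68 and 9.89 against 9.33 and 9.35, higher on each synaptic array by 0.44 ± 0.29 (unadjusted p = 0.187). Ryk differed by 0.17 ± 0.20 with the regions apart on its brightest probe set and by -0.29 ± 0.30 on the next. Lrp5 followed the array number, at 10.73 and 10.85 on the arrays numbered 1 and 9.81 and 9.68 on those numbered 2.

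Of the R-spondins, which act through Lgr receptors and of which R-spondin 2 is known from the neuromuscular synapse, Rspo1 and Rspo3 were measured. Rspo1 was at 11.74 and 11.18 on the synaptic arrays against 11.41 and 11.17, a difference of 0.17 ± 0.28 (SE) with the regions overlapping. Rspo3 was at 9.32 and 9.44 against 9.83 and 9.52, below on each synaptic array, with a difference of -0.29 ± 0.30. Rspo2 was above the floor on only 1 array of each region, at 8.74 and 8.56 on its brighter probe set, and was not tested. Rspo4 was under the filter as well.

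Of the 11 genes grouped as secreted antagonists, among them Dkkl1, which is counted here by its name alone, 7 were measured, of which Sfrp5 and Dkk3 had a positive and 5 a negative difference, with a median of -0.19. Sfrp2 was at 12.65 and 12.58 on the synaptic arrays against 12.88 and 12.73, a difference of -0.19 ± 0.18 (SE). Sfrp4 was at 10.90 and 11.25 against 11.25 and 11.52, a difference of -0.31 ± 0.25. Dkk2, a ligand of Lrp5 and Lrp6, was at 10.07 and 10.00 against 10.12 and 10.71, a difference of -0.38 ± 0.30. Each of these 3 had the regions apart, Sfrp4 by a margin that is lost in rounding, and none had an unadjusted p under 0.05. A dimmer probe set of Sfrp1 was also below on each synaptic array, at 10.64 and 10.93 against 10.94 and 11.11. By probe set, 4 of 14 antagonist probe sets tested were apart as lower and 1 as higher, against 9.98% and 9.89% of all probe sets. Sfrp1 differed by -0.19 ± 0.22 and Dkk3 by 0.09 ± 0.29. Frzb was at 12.55 and 13.26 against 12.65 and 13.25 and so overlapped (-0.05 ± 0.34). Dkk4, Dkkl1 and Wif1 were at the floor on all 4 arrays.

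Sfrp5, known also as a protein secreted by fat cells that binds Wnt5a, was at 11.16 and 10.74 on the synaptic arrays against 10.26 and 9.89. Both synaptic arrays were above each of the others, and the difference between the region means was larger than the gap within either region. The difference was 0.88 ± 0.29 (SE, n = 2 arrays per region; 95% interval 0.15 to 1.61), with a limma unadjusted p of 0.0269 and an adjusted p of 0.9999. The dimmer probe set of Sfrp5 gave 1.33 ± 0.77, at 9.05 and 10.17 against 7.31 and 9.24, where 7.31 is the floor. It passed the filter through the synaptic region alone and is no second support. Of the fat cell markers, the adipokine gene Adipoq was at 7.54 and 7.56 against 13.14 and 12.82 and passed as lower (limma adjusted p = 0.0326). Of the 6 adipocyte genes measured 5 had a negative difference. However, 4 of the 6, Adipoq among them, passed the filter through the non-synaptic region alone, so this call and this count support nothing. The part of fat cells in the value of Sfrp5 was not tested.

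The 250 bases before the annotated start are shown for Wnt7a, Sfrp5 and Fzd10, because Wnt7a, Sfrp5 and the partner transcript of Fzd10 had the smallest unadjusted p. They are from RefSeq, build GRCm38.p6, written 5′ to 3′ on the gene's strand. Capitals mark the N-box CCGGAA, an element known from acetylcholine receptor genes expressed at the synapse, and the E-box CANNTG, the site of myogenic factors, on either strand.
Fzd10, chr5:128600856-128601105, plus strand: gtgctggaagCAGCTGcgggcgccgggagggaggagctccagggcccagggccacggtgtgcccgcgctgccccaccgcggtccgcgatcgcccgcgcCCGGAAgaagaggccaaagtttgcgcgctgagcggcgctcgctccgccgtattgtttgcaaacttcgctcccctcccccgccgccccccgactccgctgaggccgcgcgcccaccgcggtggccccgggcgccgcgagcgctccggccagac
Sfrp5, chr19:42202253-42202502, minus strand: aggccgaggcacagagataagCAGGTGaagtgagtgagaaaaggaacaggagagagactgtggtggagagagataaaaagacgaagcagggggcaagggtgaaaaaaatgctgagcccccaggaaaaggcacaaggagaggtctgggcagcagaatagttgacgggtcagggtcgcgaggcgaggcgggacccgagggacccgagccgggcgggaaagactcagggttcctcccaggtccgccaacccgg
Wnt7a, chr6:91411354-91411603, minus strand: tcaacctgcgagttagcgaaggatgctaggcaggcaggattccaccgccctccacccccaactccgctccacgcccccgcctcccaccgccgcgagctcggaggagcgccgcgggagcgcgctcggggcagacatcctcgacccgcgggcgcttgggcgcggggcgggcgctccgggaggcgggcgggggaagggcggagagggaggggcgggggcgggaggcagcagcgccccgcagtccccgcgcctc
The window of Fzd10 held 1 N-box, 152 bases before the start, and 1 E-box, 240 bases before it, with no overlap between them. That of Sfrp5 held 1 E-box at 229 bases and 0 N-boxes, and that of Wnt7a held neither. Over 32851 windows of the same length, 12.03% held an N-box and 66.2% an E-box. Of the 42 windows of the 38 Wnt pathway genes found in the table, 3 (7.14%) held an N-box and 26 (61.9%) an E-box. The motif CTTTGA of the TCF and LEF factors, the partners of beta-catenin, was in 6 of the 42 windows (14.3%), against 13.8% of all. These matches describe letters only. The shares of G and C were 76.4% for Fzd10, 59.6% for Sfrp5 and 77.6% for Wnt7a, against a median of 52.4% over all windows.

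In the intracellular core, the brightest probe sets of Apc, Axin1, Axin2, Ctnnb1, Dvl1 and Dvl2 had differences from -0.04 to 0.16, and Dvl3 lay under the filter. Ctnnb1, which encodes beta-catenin, was at 15.40 and 15.64 on the synaptic arrays against 15.41 and 15.70, a difference of -0.04 ± 0.18 (SE; 95% interval -0.50 to 0.43). Its dimmer probe sets gave -0.33 ± 0.68 (95% interval -2.06 to 1.39) and -0.64 ± 0.73 (-2.49 to 1.21), so they did not exclude a 2-fold difference. Dvl1, a Dishevelled protein that binds Musk, was at 15.10 and 14.71 against 14.90 and 14.85, a difference of 0.03 ± 0.19 (95% interval -0.46 to 0.51). Axin2, a scaffold that is itself a standard target of beta-catenin, differed by 0.02 ± 0.32, at 12.07 and 11.34 against 11.86 and 11.50. For these 3 genes the values of the regions overlapped on the brightest probe set. The dimmer probe set of Dvl1 was below on each synaptic array, at 13.82 and 13.83 against 13.85 and 14.03 (-0.12 ± 0.17).

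The probe sets of Axin1 disagreed. The brighter was at 11.93 and 11.30 on the synaptic arrays against 11.71 and 11.21 (0.16 ± 0.32, SE). The dimmer was at 9.52 and 9.77 against 10.05 and 10.75, below on each synaptic array (difference -0.76 ± 0.34, unadjusted p = 0.0762). That difference was -0.41 with non-synaptic replicate 2 left out.

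**Figure D2:**
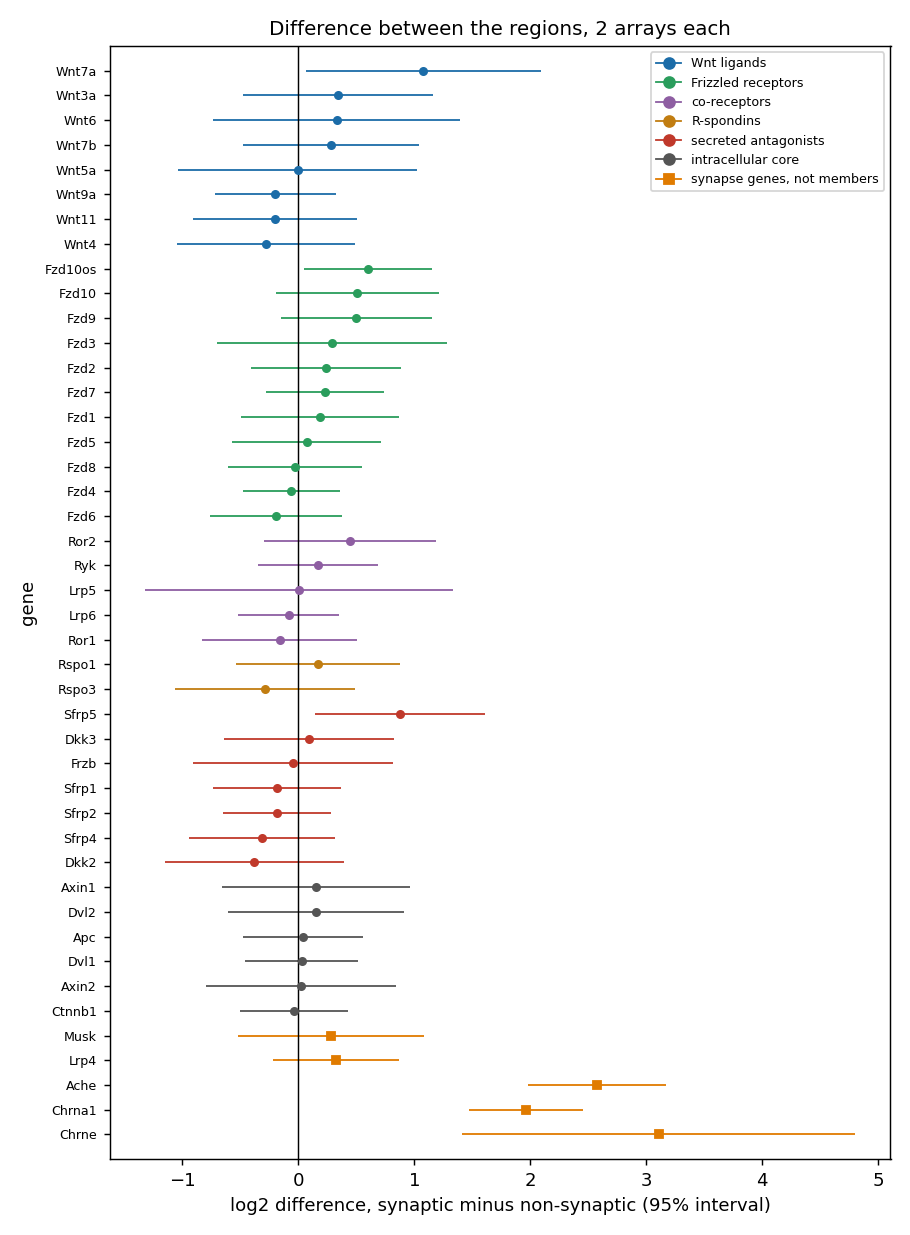
Log2 difference (synaptic minus non-synaptic) with its 95% interval for the 39 measured genes, coloured by role, and for 5 genes of the synapse as orange squares. These 5 were picked from the 9 genes of the synapse check, and Dok7, Rapsn, Agrn and Colq are not drawn. The interval leaves out 0 for Wnt7a, Fzd10os and Sfrp5 among the Wnt pathway genes, whereas Ache, Chrna1 and Chrne lie at 1.97 or more.

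Where a gene had several probe sets they often disagreed in sign. Of 17 genes with at least 2 tested probe sets, 8 had probe sets of both signs. Of the 65 probe sets 14 had a gap of over 1 on the log2 scale between the arrays of a region, or 21.5%, against 14.1% of all probe sets tested. In 11 of these 14 the arrays numbered 1 lay below those numbered 2 in each region and across them, and 13 were not the brightest of their gene. The dimmer probe set of Frzb, for example, was at 8.56 and 10.07 on the arrays numbered 1 and at 12.04 and 11.92 on those numbered 2. The titles do not explain what this number stands for.

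**Figure D3:**
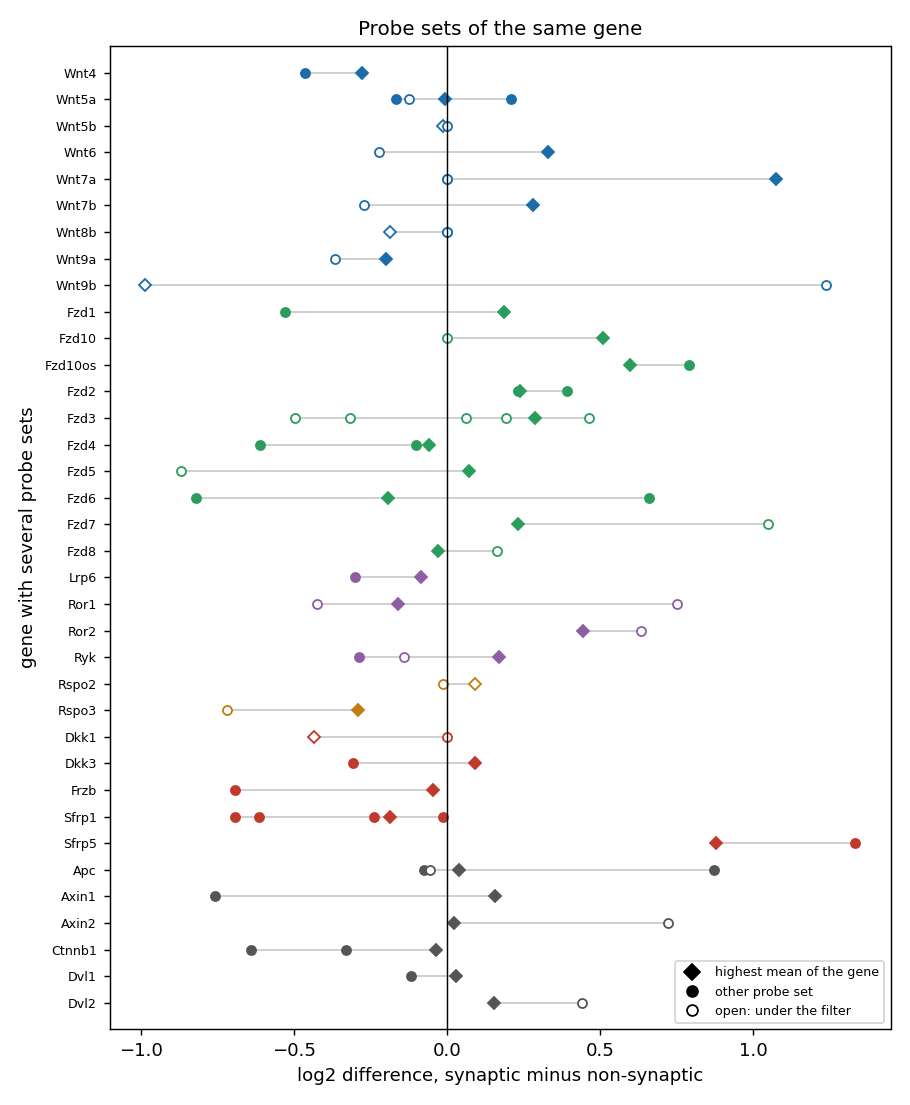
Log2 difference (synaptic minus non-synaptic) of every probe set of the 36 genes that have several, with a diamond for the brightest, circles for the others and open symbols under the filter. Both probe sets of Fzd10os lie to the right of 0, while those of Fzd6 and Axin1 lie on both sides. The dimmer one of Sfrp5, at 1.33, passed the filter through the synaptic region alone.

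Other genes of the pathway were read from 4 lists, 88 genes in all, of which 73 were measured. By limma 0 passed the test and 0 had an unadjusted p under 0.05 in either direction, and the median difference was 0.03. The regions were apart for 11 as higher and 5 as lower in the synaptic region, where all probe sets gave 9.89% and 9.98%. The list of regulators of Wnt secretion and of the receptors at the surface also holds Dact and Nkd genes and Mcc, which are of neither kind. It had a median of 0.21 over 16 measured genes, 10 with a positive and 6 with a negative difference. Of the 16, 7 had the regions apart with the synaptic arrays higher, against 0 lower. The 7 were Lgr5, Dact3, Porcn, Tspan12, Nkd2, Lgr6 and Kremen1. Lgr5, an R-spondin receptor, was at 9.84 and 9.48 on the synaptic arrays against 9.05 and 8.70 (0.78 ± 0.35, SE, unadjusted p = 0.0717). Its non-synaptic mean of 8.876 lay barely above the filter of 8.872. Dact3, a Dishevelled antagonist, was at 11.51 and 11.58 against 11.13 and 11.10 (0.43 ± 0.20). Neither passed.

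The 27 measured intracellular components had a median of -0.006, with Bcl9, a beta-catenin cofactor, at 0.54 ± 0.40 and the kinase Csnk1d at -0.57 ± 0.50 (SE). The 23 measured genes of the planar polarity and calcium branch had a median of 0.02, with Celsr1 at -0.56 ± 0.38 and Vangl2 at -0.39 ± 0.28. Celsr1 passed the filter through the non-synaptic region alone, and its difference supports nothing. Of the known targets 10 were measured, with a median of 0.13, and 6 of that list are also in another. The growth factor Fgf18 was at 9.53 and 9.78 against 8.54 and 9.09 (0.84 ± 0.36, unadjusted p = 0.0672), but it passed the filter through the synaptic region alone and supports nothing. Myc differed by 0.24 ± 0.35, Ccnd1 by 0.33 ± 0.57 and Jun by -0.02 ± 0.19. Of the Musk complex at the synapse, Musk differed by 0.28 ± 0.32 and its partner Lrp4 by 0.32 ± 0.21, beside the values of Dok7, Rapsn and Agrn given above, and none passed.

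Schwann cell markers differed between the regions in these samples. Of 13 measured Schwann cell markers all 13 had a positive difference, and the median was 0.99. The regions were apart as higher for 12 of the 13, against 9.89% of all probe sets. Among the 13, Ncmap, Egr2 and Ugt8a passed the filter through the synaptic region alone, and their part in these counts supports nothing. The myelin gene Mbp was at 15.33 and 15.44 on the synaptic arrays against 11.81 and 11.94 and passed the test (limma adjusted p = 0.0326). The summed intensity of the 14 markers on the array was 118674 to 130943 on the synaptic arrays and 38669 to 40102 on the others, and none was at the floor on all arrays. The part of these cells in the values of Sfrp5, Wnt7a, Fzd10os, Fzd10 and Fzd9 was not tested.

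The 6 measured adipocyte markers had a median of -3.37, but 4 of them, Adipoq, Retn, Pck1 and Ucp1, passed the filter through the non-synaptic region alone. That median rests on them and supports nothing. Lpl and Lipe, above the filter in both regions, differed by 0.05 ± 0.15 and -0.20 ± 0.44 (SE). The summed intensity of all 8 adipocyte markers on the array was 127282 to 150153 on the synaptic and 150203 to 153965 on the non-synaptic arrays. Most of it came from Lpl, which muscle also expresses, while Pck1 and Ucp1 were at the floor on both synaptic arrays. Smooth muscle and pericyte markers had a median of -0.20, with all 5 measured genes negative. The regions were apart as lower for 3 of the 5, against 9.98% of all probe sets. The summed intensity of these markers was 131935 to 135282 on the synaptic arrays against 131753 to 153183, so that the regions overlapped. The part of either cell type in the values of Sfrp2, Sfrp4 and Dkk2 was not tested. Fibroblast, tendon, mesothelial, endothelial, macrophage and satellite cell markers had medians of -0.08, 0.19, -0.07, -0.006, -0.02 and -0.11, and skeletal muscle fibre genes one of 0.05.

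**Figure D4:**
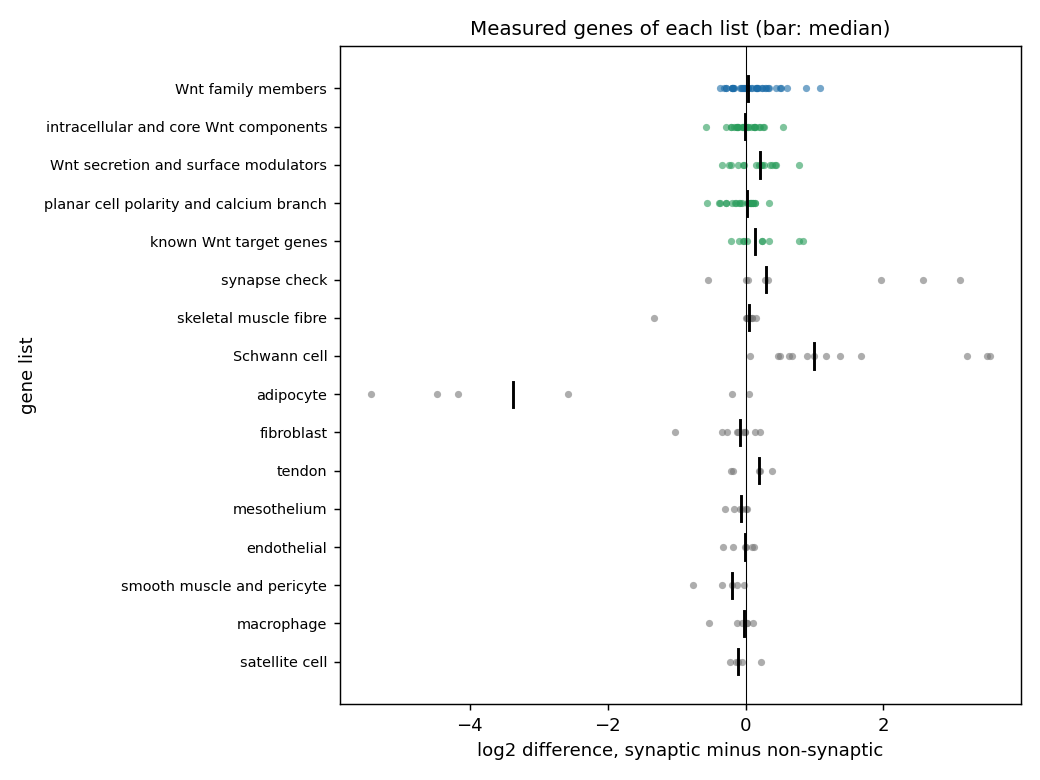
Log2 difference (synaptic minus non-synaptic) of each measured gene in the Wnt family, in 4 lists of other pathway genes (green) and in the synapse and cell type lists (grey), with a black bar at the median. The Wnt family spans -0.38 to 1.08 around a median of 0.04 over 39 genes, whereas Schwann cell markers reach above 3 and adipocyte markers below -5.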

How the data were processed

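RNA of 4 samples was measured on 1-colour oligonucleotide arrays. Each deposited value is the linear intensity of a probe set. The authors had brought the arrays to a common level, since the 2% trimmed mean was 2500 on each, and that scaling was kept. A difference common to most transcripts would therefore be lost. No source used here names the scanner, summary method or software, and no background call comes with the values. The number of arrays limits the precision.

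Intensities were raised to a floor, the 20th percentile (158.891), before log2 was taken from the deposited values. Probe sets with a mean under the 40th percentile of these values (8.87) and 64 control probe sets were left out, leaving 26480. Gene names came from the platform annotation, with 34958 probe sets of 1 gene, 932 of several and 9211 of none. Symbols were updated through Entrez identifiers with RefSeq tables of GRCm38.p6 (34754 matched, 204 kept as given). A gene was read from its brightest probe set. Levels of different probe sets are not compared.

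Differences between the regions were tested in R 4.3.3 with limma 3.58.1 (lmFit, eBayes with an intensity trend, 2-sided, Benjamini-Hochberg over all probe sets tested, threshold 0.05). There were 2 residual degrees of freedom, and the prior added 3.16. Errors and intervals come from this fit. With 2 arrays a region, exact permutation could reach no p below 0.333 and was not used. The replicate number is the last digit of the titles. Values on each array are given for members with an unadjusted p under 0.05 or with the regions apart by at least 0.5, for the brightest gene of each role, and for further members chosen after their values were seen. Of each pathway and cell type list up to 4 genes by smallest p and 2 by highest mean were eligible, and Porcn, Nkd2, Lgr6 and Lef1 were added after their values were seen. Members and lists were chosen with earlier results of these data known. The procedure was tested on simulated data with independent noise on each array. That simulation left out the likeness of arrays with the same number. Figures were drawn with matplotlib 3.10.9.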

Additional observations from a re-analysis of the deposited data

How the results depend on the processing

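No member passed an adjusted p under 0.05 in any of the 14 alternatives run. These changed the scaling, the filter, the floor, the variance prior, the replicate block and the threshold, or left out an array. Sfrp5, Wnt7a, Fzd10os, Fzd10, Fzd9, Lrp6, Wnt9a and the named probe sets of Axin1 and Fzd6 kept their direction wherever they were tested. Over all probe sets 1 was called higher and 2 lower. Median centring or an adjusted p under 0.10 gave 6 higher, the filter at the 60th percentile gave 3 higher, the floor at the 40th percentile gave 1 lower, and leaving out the filter or the trend gave 0 in each direction (826 and 679 at an unadjusted p under 0.05 without the filter, 270 and 144 without the trend). Of the 65 member probe sets tested, 11 were apart as higher and 9 as lower. Without a filter, which adds probe sets, 14 of 112 were apart as lower, against 9.37% of all probe sets. With the filter at the 60th percentile, which removes them, 7 of 47 were apart as higher, against 8.45% of all. Leaving out an array gave 0 to 6 calls higher and 0 to 5 lower over all probe sets. It gave 17 to 29 members apart as higher and 15 to 27 as lower, since 1 region then has a single array, assumed to vary like the other region (24.8% to 37.4% of all probe sets). The median of the members then ranged from -0.10 to 0.12. Some small differences changed sign when an array was left out. Ctnnb1 ranged from -0.18 to 0.11, with 0.08 without synaptic replicate 1. Frzb ranged from -0.40 to 0.31, with 0.26 without non-synaptic replicate 2. Fzd4 ranged from -0.15 to 0.030 and Rspo1 from -0.11 to 0.45. The cause was not tested.

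The titles share replicate numbers between the regions without saying that these pair the samples. Deviations from the region means correlated at 0.634 over probe sets between arrays with the same number. With the replicate block the calls were 56 higher and 18 lower over all probe sets, and 0 members passed (lowest limma adjusted p = 0.303, for Sfrp5), with 6 members higher (9.23%) and 4 lower (6.15%) at an unadjusted p under 0.05, against 2.62% and 3.65% of all probe sets.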

Other observations

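Among the targets of beta-catenin, Lef1, a transcription factor of the pathway, lay under the filter and was not tested. It was at 9.10 and 8.30 on the synaptic arrays and at the floor of 7.31 on both non-synaptic arrays. It was chosen after its values were seen. The ligand Wnt2, also under the filter, was at 7.68 and 8.69 on the synaptic arrays against 8.73 and 8.86. Dkk1, an Lrp6 antagonist, was at 7.39 and 7.31 against 7.87 and 7.70. Both genes were lower on each synaptic array, and Dkk1 was close to the floor. The second probe set of Fzd7 was at 7.37 and 9.35 against 7.31 and 7.31.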
